A study of Mus musculus with 14 samples.

Results

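Heart allografts that were being made tolerant were compared with heart isografts, both on day 7 after transplantation, across all genes of an Affymetrix mouse array. The members of the comparison are 6 of the 14 hearts in the series, chosen by their labels alone: 3 labelled tolerizing allografts and 3 labelled isografts. The isografts were C57/BL6 hearts placed into C57/BL6 recipients. The tolerizing allografts were Balb/c hearts placed into C57/BL6 recipients that received anti CD80/86 mAb, antibodies against the costimulatory ligands CD80 and CD86. The other 8 arrays of the series were 3 rejecting allografts of day 7 (Balb/c hearts in C57/BL6 recipients, with no antibody named), and, on day 70, 2 isografts and 3 tolerizing allografts of the same strains and treatment as on day 7. The labels used give no sex, age or antibody dose, and none says whether the hearts of a group came from separate operations. The p-values therefore measure only the spread between hearts of a group. That spread was pooled over the 5 groups of all 14 arrays, the rejecting and day 70 hearts included. The day 7 groups differ at once in donor strain, in the presence of an alloimmune response and in the antibody, and these cannot be told apart in this comparison.

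A graft from another strain carries MHC molecules that the recipient's T cells recognise. T cells need a second signal from CD28, which binds CD80 and CD86 on antigen-presenting cells, and blocking these ligands weakens T cell priming. T cells and NK cells that enter a graft secrete interferon-gamma, which induces genes for guanylate-binding proteins, immunity-related GTPases, chemokines, the immunoproteasome and MHC molecules. The adult heart draws most of its energy from fatty acid oxidation in the mitochondria of its myocytes.

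The probe sets compared were those above a signal intensity of 11 on at least 3 of the 6 arrays, 9510 of the 12422 that are not controls (76.6%), standing for 6905 genes. Intensity is in arbitrary units, and readings under 11 were raised to 11, the floor, before log2 was taken. Of these, 37 probe sets entered only through the 3 tolerizing arrays and 27 only through the 3 isograft arrays, and 4 of the former were called higher and 2 of the latter lower. Trimmed of 2% at each end, the mean was 99.98 on every array, and correlations of log2 intensity were 0.932 to 0.954 within groups and 0.895 to 0.941 between groups. The labelled tissue was borne out by the cardiac myosin heavy chain Myh6, which read 4297.2, 4935.9 and 3487.4 in the isografts and 1990.8, 3721.5 and 2294.5 in the tolerizing hearts. The ratio of the 3' to the 5' beta-actin control, a measure of RNA and labelling quality, did not overlap between the groups. It was 1.52, 1.98 and 1.58 in the isografts and 1.09, 1.17 and 1.37 in the tolerizing hearts. The same ratio of the Gapdh control did overlap, at 0.818, 0.945 and 0.866 against 0.821, 0.845 and 0.89. The part of the beta-actin ratio in the results was not tested beyond a fit with it as a covariate. Isograft array 2 stood apart for Myl7, the atrial myosin light chain, at 397.5 against 4.1 to 8.3 on the other 5 arrays, and for the fat cell hormone Adipoq, at 134.3 against 11.7 to 22.

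Of the 9510 probe sets, 179 (1.88%) passed an adjusted p of 0.05 in limma's test with Benjamini-Hochberg adjustment: 99 were higher (1.04%) and 80 lower (0.841%) in the tolerizing hearts. On the side of the rises stood genes induced by interferon-gamma, genes of antigen processing and presentation, chemokines and CD8 T cell genes. On the side of the falls stood genes of fatty acid uptake and oxidation and single genes of other lists. In each of the 179 the 3 arrays of one group lay wholly above those of the other, as did 951 of all tested probe sets with the tolerizing hearts above (10%) and 1165 with them below (12.3%). Changes past 4-fold were seen in 37 of the 99 rises and 18 of the 80 falls. Taking the brightest probe set per gene, 69 of 6905 genes rose (0.999%) and 63 fell (0.912%), and the median log2 difference over all genes was -0.032. The number called fell to 103 and 90 without isograft array 1 or 2, to 84 and 101 without tolerizing array 1 or 3, and to 7 once the beta-actin ratio entered as a covariate, a ratio that differs between the groups.

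The genes of the interferon-inducible GTPases, cytosolic proteins that attack the vacuoles of intracellular microbes, held the largest rise of the comparison. Of 18 listed genes 11 were measured, 9 rose, none fell, and the median log2 difference was 2.42 against -0.032 over all genes. The 9 were called higher whichever of the 6 arrays was left out, and 3 were called once the beta-actin ratio entered as a covariate. Igtp, an immunity-related GTPase on chromosome 11, read 105.7, 164.3 and 219.9 in the isografts and 1632.1, 1942.7 and 1705.3 in the tolerizing hearts. All 3 tolerizing hearts were at least 1632.1, and the log2 difference was 3.49 ± 0.32 (SE, n = 3 per group, adjusted p = 6.312e-05). Its neighbour Irgm2 read 175.7, 259.5 and 269.1 against 1232.8, 1299.1 and 1182.6, with little spread among the tolerizing hearts. That rise was 2.42 ± 0.25 on the log2 scale (adjusted p = 0.0001957). Irgm1, the third member of this subfamily, went from 37.7, 55.7 and 62.6 to 316.2, 424.6 and 369.7 (log2 2.85, adjusted p = 0.002566).

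The guanylate-binding proteins moved with them. Gbp2, on chromosome 3, read 155.4, 231.8 and 309.6 in the isografts and 1316.3, 1080.8 and 1086.4 in the tolerizing hearts, a log2 difference of 2.37 (SE 0.33, adjusted p = 0.001555). Its neighbours Gbp3 and Gbp7 rose by 2.2 (adjusted p = 0.0009769) and 2.49 (adjusted p = 0.004769). Ifi47 rose by 2.77 and Iigp1 by 2.27, both immunity-related GTPases (adjusted p = 0.004498 and 0.006124). The 2 measured GTPases that were not called were Mx1 and Mx2, antiviral proteins that answer to type I interferon, with log2 differences of 0.38 (adjusted p = 0.8246) and 0.1 (adjusted p = 0.9315).

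Gbp2b gave the largest difference of all, and here the donor strain cannot be told apart from the response. Isograft arrays 1, 2 and 3 read 1.3, 1.1 and 1, all far under the floor, and the tolerizing arrays 1276.3, 1308.5 and 1373.8. Against the floor the tolerizing hearts were at least 120-fold higher (adjusted p = 1.025e-09). The day 70 isografts of the same strain were also under the floor, at 1.2 and 0.9, so that the probe set read under the floor in all 5 C57/BL6 hearts of the series.

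To show the sequences in front of these genes, the stretch from 150 to 1 bases before the RefSeq start (build GRCm38.p6) was searched for 2 motifs of interferon-regulated genes, and the counts below use the whole promoter of the RefSeq table, from 250 bases before to 50 after the start. The first was the gamma-activated site, spelled TTCNNNGAA, which is its own reverse complement. The second was a pair of GAAA half-sites of the interferon-stimulated response element, spelled GAAA, any 2 bases and GAAA again, or TTTC, any 2 bases and TTTC on the other strand. The sequences read 5' to 3' on the gene's strand, and capitals mark the matches. Igtp and Irgm2 are shown because they carry both motifs side by side, with the gamma-activated site followed by 2 bases and then the half-sites, from chr11:58199406-58199555 and chr11:58214827-58214976, both on the plus strand. Irgm1 (chr11:48871421-48871570, minus strand), Gbp2 (chr3:142620513-142620662, plus) and Gbp3 (chr3:142559894-142560043, plus) carry the half-sites, which overlap each other in Irgm1 and Gbp3. Irf1 (chr11:53769864-53770013, plus) and Psmb8 (chr17:34198045-34198194, plus), described below, carry the gamma-activated site.
Igtp: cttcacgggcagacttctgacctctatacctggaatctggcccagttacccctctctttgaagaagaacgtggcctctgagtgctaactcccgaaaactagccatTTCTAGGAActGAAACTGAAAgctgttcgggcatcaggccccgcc
Irgm2: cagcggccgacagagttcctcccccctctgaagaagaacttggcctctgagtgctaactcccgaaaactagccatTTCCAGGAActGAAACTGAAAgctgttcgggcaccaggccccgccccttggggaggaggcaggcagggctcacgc
Irgm1: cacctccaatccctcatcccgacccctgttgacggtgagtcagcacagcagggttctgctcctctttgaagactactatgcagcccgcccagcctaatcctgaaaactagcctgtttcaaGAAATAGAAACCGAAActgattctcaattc
Gbp2: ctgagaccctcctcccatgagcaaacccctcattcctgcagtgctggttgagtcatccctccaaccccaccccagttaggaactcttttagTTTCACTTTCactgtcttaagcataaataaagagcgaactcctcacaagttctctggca
Gbp3: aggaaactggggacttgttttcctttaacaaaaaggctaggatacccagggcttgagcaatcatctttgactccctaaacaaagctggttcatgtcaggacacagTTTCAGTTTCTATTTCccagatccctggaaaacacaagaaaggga
Irf1: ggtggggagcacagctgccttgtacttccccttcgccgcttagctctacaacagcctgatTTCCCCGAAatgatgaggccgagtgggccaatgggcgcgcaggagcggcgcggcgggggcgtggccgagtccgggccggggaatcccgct
Psmb8: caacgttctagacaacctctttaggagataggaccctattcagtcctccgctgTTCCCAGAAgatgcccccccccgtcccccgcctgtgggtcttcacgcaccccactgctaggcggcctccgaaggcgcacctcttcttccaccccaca
Counted from the start, the motif pair begins at position -45 in Igtp and at position -75 in Irgm2. Promoters were found for 56 of the 73 genes with a probe set called higher and 53 of the 71 with one called lower. Of the 68 promoters of the genes called higher, 14.7% held the paired half-sites and 17.6% the gamma-activated site. Among all 32851 promoters the shares were 3.44% and 8.3%, and among the 71 promoters of the genes called lower 4.23% and 8.45%. For the called GTPases, 7 of 9 promoters held the half-sites. A match is a description of letters and says nothing on whether a factor was bound.

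**Figure D1:**
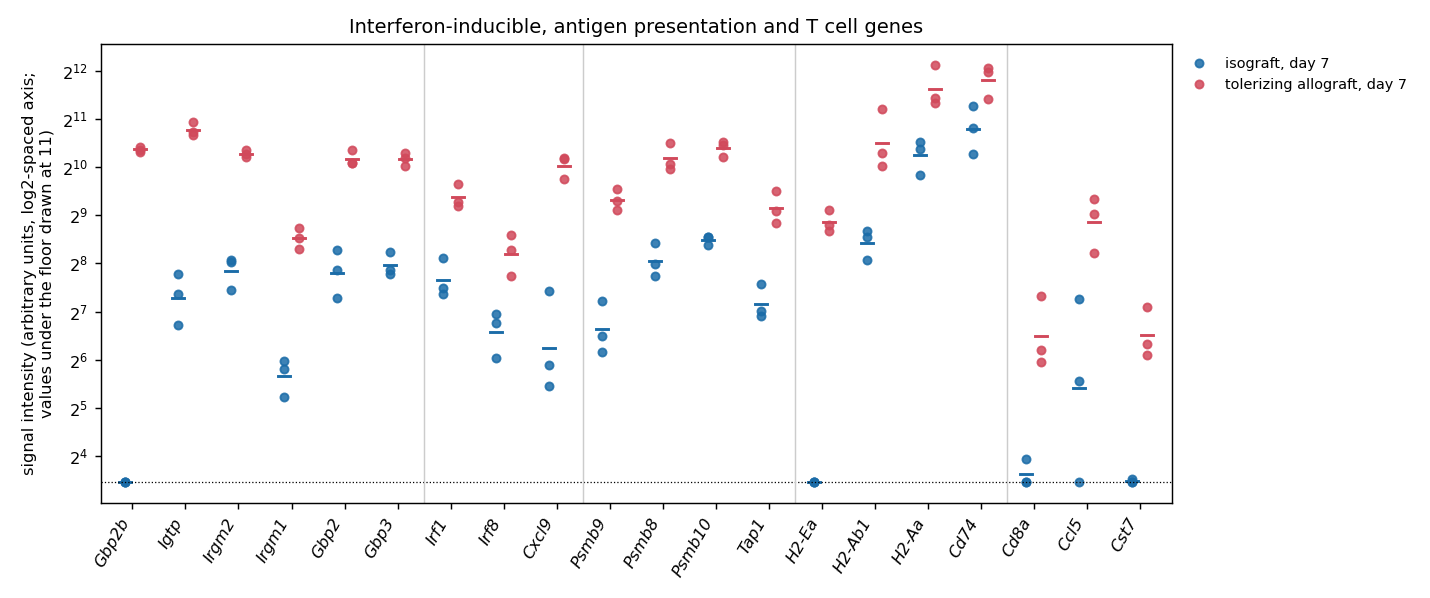
Signal intensity on each array (points, log2-spaced axis, arbitrary units) and the group mean of log2 intensity (short lines) for isografts and tolerizing allografts on day 7, 3 hearts each; the dotted line is the floor of 11. For every gene drawn the tolerizing hearts lie above the isografts, and Gbp2b and H2-Ea lie at the floor in all 3 isografts; Cd74 is the one gene drawn that was not called.

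Among the transcription factors and signalling genes of interferon, 2 of 18 rose and none fell, with a median log2 difference of 0.37. Irf1, the transcription factor that carries the interferon-gamma response forward, read 164, 180.4 and 276.9 in the isografts and 798, 620.3 and 587.9 in the tolerizing hearts (log2 1.72, SE 0.26, adjusted p = 0.00266). Irf8, a factor of myeloid cells, read 65.8, 109.3 and 122.9 against 387.5, 213.7 and 308.4. Its log2 difference was 1.62 (adjusted p = 0.01066), and the call was lost without isograft array 1 (the lowest isograft) and without tolerizing array 1 (the highest tolerizing heart). Interferon-gamma itself, Ifng, was too dim to be tested, with 0.9, 0.4 and 1.7 in the isografts and 14.3, 2.9 and 7.7 in the tolerizing hearts. The antiviral genes of type I interferon were mixed: 3 of 13 rose, with a median of 0.64. They were Ifi202b, with 0.5, 9.1 and 5.1 against 74.7, 53.3 and 78.8 (at least 6.18-fold, adjusted p = 0.0009769), Ifi204 and Ifi35. Ifi202b entered the test only through the tolerizing arrays. It was also under the floor in the day 70 isografts, at 1.6 and 2.9, so donor strain and response cannot be told apart for it. Ifit2, at a log2 difference of 2 (adjusted p = 0.1941), and Usp18, at 1.43 (adjusted p = 0.2605), did not pass. The list held 1 rise without any 1 of the isograft arrays or without tolerizing array 1 or 3.

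Of 30 measured chemokines and receptors, 3 rose and none fell, with a median of 0.7. Cxcl9, an interferon-gamma-induced ligand of the T cell receptor Cxcr3, read 43.7, 59 and 171.6 in the isografts and 1149.7, 858.1 and 1158 in the tolerizing hearts. Isograft array 3 was the highest isograft and still below the lowest tolerizing heart, and the log2 difference was 3.78 ± 0.47 (adjusted p = 0.0009737). Ccl5, made by T cells and NK cells, varied more, with 7.3, 46.9 and 153 against 643, 296.8 and 522.7. Its rise of 3.43 on the log2 scale had an SE of 0.72 (adjusted p = 0.02233). Xcl1, a chemokine of CD8 T and NK cells, read 18.2, 34.4 and 36.7 against 268.9, 133.9 and 168.9 (log2 2.68, adjusted p = 0.01994). Ccl5 and Xcl1 were not called when isograft array 1 or 2 or tolerizing array 1 or 3 was left out. The monocyte chemokine Ccl2, with 92.9, 138 and 100.5 against 344.9, 488.9 and 889.7, did not overlap between the groups but did not pass (log2 2.29, adjusted p = 0.1349).

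The machinery that makes and loads peptides for MHC class I was higher in the tolerizing hearts. In the immunoproteasome list 4 of 6 genes rose, with a median log2 difference of 1.47. Psmb9, a catalytic subunit encoded in the MHC region of chromosome 17, read 71.5, 90.7 and 150 in the isografts and 747, 625 and 550.2 in the tolerizing hearts (log2 2.68, SE 0.31, adjusted p = 0.0004469). Psmb8, the subunit encoded beside it, read 213.8, 254.8 and 341.2 against 1450.4, 1074.6 and 1000.9. That is a difference of 2.13 (adjusted p = 0.0005568). Psmb10, the third inducible catalytic subunit, on chromosome 8, rose by 1.91 (adjusted p = 0.003556), and the proteasome activator Psme1 by 1.02 (adjusted p = 0.02528). None of the 29 measured genes of the constitutive proteasome was called, and their median was 0.09.

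In the class I list 5 of 14 genes rose, with a median of 0.78. The peptide transporter subunit Tap1 read 119.3, 129 and 190 in the isografts and 725.6, 460.6 and 544.2 in the tolerizing hearts (log2 1.99, adjusted p = 0.001945). Its partner Tap2 read 34.4, 48.6 and 45.7 against 138, 115.9 and 131.3 (log2 1.59, adjusted p = 0.005126). The heavy chain genes H2-D1 and H2-K1 rose by 1.23 and 1.03 (adjusted p = 0.005627 and 0.01542), and the non-classical H2-Q4 by 1.1 (adjusted p = 0.03094). These are the brightest probe sets. Other called probe sets gave 2.75 and 1.18 for H2-D1 and 3.05 and 1.46 for H2-K1, so the size of these rises is uncertain. The heavy chain genes are near-identical copies that differ between the strains, so the split of signal between them is uncertain. Without isograft array 1 or 2 or tolerizing array 1 the list held 3 rises. The invariant light chain B2m, which lies outside the MHC, was not called, at a log2 difference of 0.58 (adjusted p = 0.2445).

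Class II presentation held 8 rises among 14 measured genes and no fall, with a median of 1.4. H2-Ab1, a beta chain of the classical class II molecules, read 268.9, 410.5 and 372.8 in the isografts and 2359.6, 1037.2 and 1253.8 in the tolerizing hearts. Tolerizing array 1 was the highest by a wide margin, and the log2 difference was 2.07 ± 0.3 (adjusted p = 0.002053). H2-Aa rose by 1.38, H2-Eb1 by 1.52, H2-DMa, which helps exchange peptides, by 1.42, and H2-DMb1 by 1.58 (adjusted p = 0.01374 to 0.02543). The lysosomal protease Ctss, which trims the invariant chain, read 1051.8, 845.6 and 923.4 against 3284.3, 2222 and 2540.6 (log2 1.5, adjusted p = 0.02233). The thiol reductase Ifi30 rose by 1.95 (adjusted p = 0.01482). The invariant chain Cd74 read 1243, 1796.8 and 2449.1 against 4270.5, 2709.7 and 4016.7 and did not pass (log2 1.03, adjusted p = 0.07641). Without isograft array 1 or tolerizing array 1 only 2 class II genes were called, without isograft array 2 or tolerizing array 3 only 4.

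H2-Ea, the class II alpha chain gene that C57BL/6 mice carry with a deletion and do not transcribe, served as a check of the strains. The isografts read 3.7, 2.5 and 8.1, under the floor, and the tolerizing hearts 408.5, 442.1 and 552, at least 42.2-fold higher (adjusted p = 1.619e-05). The groups thus differ at this gene as the labelled donor strains do. Pdxdc1 had 3 probe sets, which were called in opposite directions, with log2 differences of 4.7, -1.71 and -2.38. Of the 82 rises with a known chromosome, 23 were on chromosome 17, which carries the MHC, against 471 of the 8465 tested probe sets with a chromosome.

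Genes of CD8 T cells and of cytotoxic cells rose while most T cell genes were not called. In the T cell list of 20 measured genes 3 rose and 1 fell, with a median log2 difference of 0.99. The coreceptor chain Cd8a read 2.5, 3.9 and 15.4 in the isografts and 159.7, 61.8 and 73.7 in the tolerizing hearts (log2 2.87, SE 0.56, adjusted p = 0.01679). Its partner Cd8b1 read 4.5, 3.3 and 24.5 against 228.9, 105.3 and 86.3. Both lay at the floor in 2 of 3 isografts, and the log2 difference of Cd8b1 was 3.15 (adjusted p = 0.02081). Lef1, a T cell transcription factor, rose by 1.02 (adjusted p = 0.03695), a call lost when any 1 of the 6 arrays was left out. The T cell receptor chain Cd3d, with 2.9, 4.2 and 24.8 against 76.2, 47.3 and 55.9, had a log2 difference of 2.02 that did not pass (adjusted p = 0.1039). The kinase Zap70, which acts below the receptor, read 9.4, 15.9 and 106.3 against 260.4, 118.2 and 82.3, so that isograft array 3 lay above tolerizing array 3 (log2 2.36, adjusted p = 0.1364). The 3 rises of the list were lost without isograft array 1 or 2 or without tolerizing array 1. Cd6, a receptor of T cells, went the other way: it read 178.6, 213.8 and 175.5 in the isografts and 32.4, 79.8 and 48.1 in the tolerizing hearts (log2 -1.92, adjusted p = 0.00645).

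In the list of cytotoxic effectors and NK cells 3 of 13 genes rose, Ccl5 among them, with a median of 1.38. Cst7, an inhibitor of the proteases that activate granzymes, read 9.5, 11.6 and 8 in the isografts and 137, 68.1 and 80.2 in the tolerizing hearts (log2 3.02, adjusted p = 0.0009819). Serpinb9, which inhibits granzyme B, read 171, 109.8 and 174.8 against 484.8, 420.7 and 492.9 (log2 1.65, adjusted p = 0.00884). The NK receptor chain Klrd1, at 2.14 (adjusted p = 0.05791), and the granzyme Gzmb, at 1.53 (adjusted p = 0.2796), did not pass. Without isograft array 2 the list held 1 rise.

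The ligands that the antibody binds and their partners were not called. Cd86 read 24.8, 25.1 and 4.4 in the isografts and 94.7, 38.9 and 36.3 in the tolerizing hearts, a log2 difference of 1.43 (adjusted p = 0.1189). Cd80 differed by 0.12 (adjusted p = 0.9287). Cd28 read 11.5, 13.3 and 24.5 against 52.3, 29.5 and 28.8 (log2 1.19, adjusted p = 0.2936), and Ctla4, Icos and Cd40lg were too dim to be tested. None of the 15 measured genes of the costimulation list was called by limma, with a median of 0.63.

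Genes of macrophages lay higher in the tolerizing hearts in most cases but few passed. Of 35 measured genes 30 had a positive difference, in 23 every tolerizing heart lay above every isograft (background 10.5% of genes), 1 rose and none fell, and the median was 0.87. The leukocyte surface protein Cd52 was the one that rose, with 266.4, 274.2 and 408.9 against 1982.2, 875.9 and 962.8 (log2 1.94, adjusted p = 0.01653); it was not called without isograft array 1 or 2 or tolerizing array 1. Aif1, a macrophage marker, read 60.8, 50.5 and 46.5 against 388.5, 162.7 and 131 (log2 1.95, adjusted p = 0.06036). The pan-leukocyte phosphatase Ptprc (CD45) read 31.9, 46.9 and 76.6 against 313, 139.4 and 220.4 (log2 2.13, adjusted p = 0.07311). Tolerizing array 1 was the highest of the 3 for 25 of the 35 macrophage genes and for 17 of the 20 T cell genes. The integrin chain Itgb2 of leukocytes rose, from 32.9, 34.6 and 63.8 to 196.5, 94.2 and 141.1 (log2 1.72, adjusted p = 0.01514). That call was lost without isograft array 1 or 2 or tolerizing array 1 or 3.

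Genes of macrophage activation gave 3 rises among 25. Ubd, a ubiquitin-like protein induced by interferon-gamma and TNF, read 12.8, 10 and 17.4 in the isografts and 195, 66.6 and 133.5 in the tolerizing hearts (log2 3.16, adjusted p = 0.005311). Il18bp, the secreted decoy that binds IL-18, read 71.3, 66.3 and 92.3 against 353, 331.5 and 287.1, a narrow range in both groups (log2 2.09, adjusted p = 0.0009819). The caspase Casp4 rose by 1.27 (adjusted p = 0.01884). Neutrophil genes (12 measured, median 0.16) and B cell genes (17 measured, median -0.03) had no call in limma's test.

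These are whole hearts, in which more cells of a type and more RNA per cell cannot be told apart. The summed intensity of the 36 macrophage genes on the array was 9351 to 10937 in the isografts and 14130 to 22706 in the tolerizing hearts, and that of the 21 T cell genes 728 to 1264 against 1343 to 2410. The 18 cytotoxic genes summed to 402 to 622 against 1285 to 2027, and 4 of them were at the floor on all 6 arrays. The 20 B cell genes summed to 1600 to 1954 against 1302 to 2865 and the 16 neutrophil genes to 542 to 875 against 601 to 1112, with the groups overlapping. The part of these cells in the rises above was not tested.

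Several rises stood outside these lists. Mthfd2, a mitochondrial enzyme of one-carbon metabolism, read 107.7, 71.7 and 95.8 in the isografts and 428.1, 351.2 and 278.5 in the tolerizing hearts (log2 1.94, SE 0.22, adjusted p = 0.0004469). Gatm, which makes the precursor of creatine, read 82.3, 93.7 and 75.7 against 304.2, 323.2 and 265.5 (log2 1.83, adjusted p = 0.001111). Both groups were tight, and both genes were called whichever of the 6 arrays was left out. The aspartic protease Napsa lay under the floor in all day 7 isografts, at 4.8, 5.3 and 4.9, against 135.5, 44.5 and 57.4 (at least 6.38-fold, adjusted p = 0.009266). Napsa entered the test only through the tolerizing arrays. It was also under the floor in the day 70 isografts, at 4.5 and 8.8, so donor strain and response cannot be told apart for it. The ubiquitin ligase Rnf19b rose by 1.73 (adjusted p = 0.0004469), Plac8 by 2.17 (adjusted p = 0.02324), and Baiap2l1, a protein that shapes the cell membrane, by 3.03 (adjusted p = 0.004745). Frzb, a secreted antagonist of Wnt ligands, read 47.9, 7.7 and 33.8 against 105.2, 86.1 and 114.3, and its log2 difference of 1.95 passed narrowly (adjusted p = 0.04488). That call was lost in 13 of the 20 alternatives that tested it, quantile normalization and the removal of any array but isograft array 1 among them, with log2 differences from 0.85 to 2.39.

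**Figure D2:**
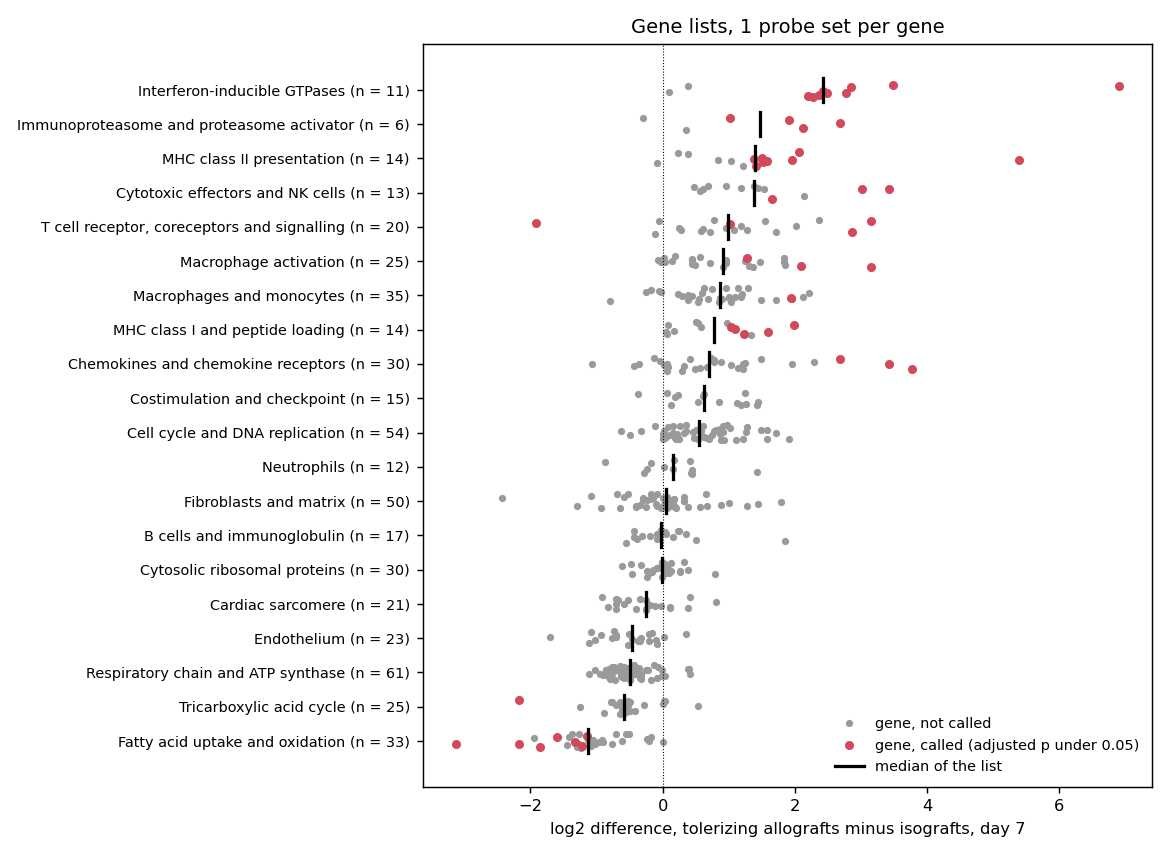
Log2 difference, tolerizing allografts minus isografts on day 7, of every measured gene in 20 lists (points, 1 probe set per gene; red where called), with the median of each list (black line) and the number of genes measured. Medians run from 2.42 for the interferon-inducible GTPases to -1.13 for fatty acid uptake and oxidation, and the cytosolic ribosomal proteins lie at -0.01.

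Genes of fatty acid uptake and oxidation lay lower in the tolerizing hearts in nearly all cases, though most did not pass. Of 33 measured genes 7 fell and none rose, 32 had a negative difference, in 27 every tolerizing heart lay below every isograft (background 13.3% of genes), and the median log2 difference was -1.13. Slc27a1, which takes up long-chain fatty acids, read 68.5, 172.5 and 157.8 in the isografts and 10.6, 16.7 and 15.1 in the tolerizing hearts (log2 -3.13, SE 0.62, adjusted p = 0.01877). Cpt2 and Slc25a20, which bring acyl groups across the inner membrane as carnitine esters, fell by 1.14 and 1.32 on the log2 scale (adjusted p = 0.01974 and 0.007704). Cpt2 read 691, 915.5 and 691.5 against 275.7, 440.3 and 336.2.

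Enzymes of beta-oxidation inside the mitochondrion also fell. Hadh, the short-chain hydroxyacyl-CoA dehydrogenase, read 663.5, 1022.8 and 803.7 in the isografts and 150, 256.7 and 155.3 in the tolerizing hearts (log2 -2.17, SE 0.34, adjusted p = 0.003217). Ech1, an isomerase for unsaturated fatty acids, read 2262, 3827.5 and 1991.1 against 478.3, 963.1 and 799.1 (log2 -1.85, adjusted p = 0.01493). Acaa2, the thiolase of the last step, read 3058.9, 4451.1 and 2252.5 against 771.5, 1461.1 and 968 (log2 -1.6, adjusted p = 0.01627). In all 3 genes isograft array 2 was the highest isograft and tolerizing array 2 the highest tolerizing heart. Etfb, which passes the electrons on, fell by 1.22 (adjusted p = 0.03689). The number of falls in the list was 2 without isograft array 2 or tolerizing array 1, 4 without isograft array 1 or tolerizing array 3, and 0 within the second run of accession numbers, which holds 2 hearts of each group. It was also 0 once the beta-actin ratio entered as a covariate. These counts are over the whole list and not only over the 7 falls of the main fit. Without tolerizing array 3 the calls of Slc27a1, Cpt2, Acaa2 and Etfb were lost.

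**Figure D3:**
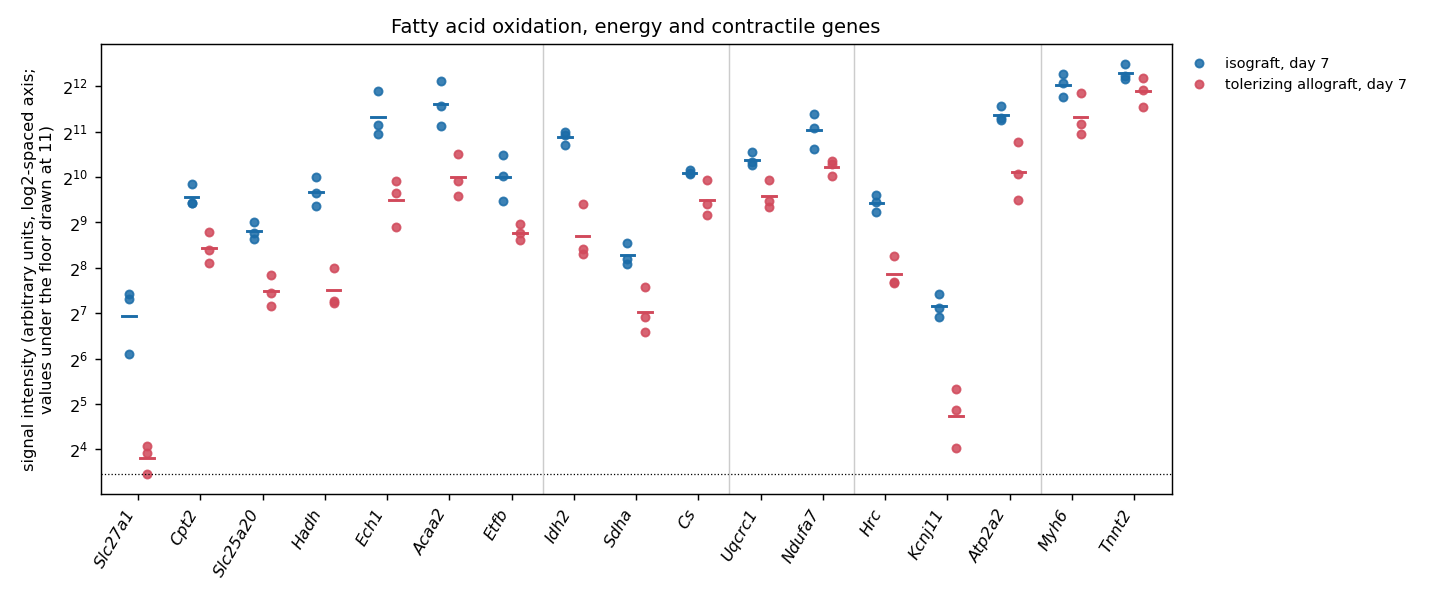
Signal intensity on each array (points, log2-spaced axis, arbitrary units) and the group mean of log2 intensity (short lines) for 17 genes of fatty acid oxidation, the citric acid cycle, the respiratory chain, calcium handling and the sarcomere, 3 isografts and 3 tolerizing allografts on day 7. The groups overlap for Myh6 and Tnnt2 alone; Sdha, Cs, Uqcrc1, Ndufa7, Atp2a2, Myh6 and Tnnt2 were not called.

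Further along the pathway the differences were smaller. Idh2, the mitochondrial isocitrate dehydrogenase, was the 1 gene of 25 in the citric acid cycle list that fell, from 1951, 2041.3 and 1678.5 to 340.1, 681.4 and 318.6 (log2 -2.17, SE 0.39, adjusted p = 0.01026), and it was not called without isograft array 2 or without tolerizing array 1 or 3. The list's median was -0.58, with 21 of 25 genes negative. None of the 61 measured genes of the respiratory chain and ATP synthase was called by limma, although 57 were negative and 24 had every tolerizing heart below every isograft (background 13.3% of genes), and the median was -0.5. The complex III core subunit Uqcrc1, with 1229.5, 1505.7 and 1293.3 against 714.9, 982.4 and 643.7, came closest (log2 -0.8, adjusted p = 0.08476). Tolerizing array 2 was the highest of the tolerizing hearts for 51 of these 61 genes, for 24 of the 33 fatty acid genes and for 14 of the 21 sarcomere genes.

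Genes of calcium handling and excitation gave 2 falls among 19 measured. Hrc, a calcium-binding protein of the sarcoplasmic reticulum, read 600.5, 776.3 and 701.3 in the isografts and 207.5, 306.2 and 203.1 in the tolerizing hearts (log2 -1.55, adjusted p = 0.00298). Kcnj11, the pore of the ATP-sensitive potassium channel, read 120.8, 139.5 and 172.3 against 29.2, 40.3 and 16.2 (log2 -2.42, adjusted p = 0.024), and it was not called without any 1 of the isograft arrays or without tolerizing array 1 or 3, which left 1 fall in the list. The calcium pump Atp2a2 read 2535, 3045.2 and 2437.8 against 724, 1749.5 and 1074.3 and did not pass (log2 -1.26, adjusted p = 0.3598). The sarcomere itself had no call among 21 genes in limma's test and a median of -0.25. Its 22 genes on the array summed to 44736 to 70009 in the isografts and 33208 to 49146 in the tolerizing hearts, overlapping ranges. The 35 fatty acid genes summed to 21674 to 30371 against 8621 to 14621, which do not overlap.

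Other genes that fell are named singly here. Fmo1, a flavin monooxygenase, read 195.6, 249.8 and 240.1 in the isografts and 62.1, 52.3 and 39.1 in the tolerizing hearts (log2 -2.18, SE 0.3, adjusted p = 0.001596). The glutathione transferase Gsta3 read 33.8, 68.7 and 33.4 against 2.5, 7.8 and 6.9, all under the floor, so that it was at least 3.88-fold lower (adjusted p = 0.00298). Its relative Gsta4 fell by 1.55 (adjusted p = 0.01272), and the alcohol dehydrogenase Adh1 by 2.35 (adjusted p = 0.01301). The methyltransferase Inmt fell by 2.79 (adjusted p = 0.03263), from isografts that ranged from 35.2 to 306.8, the latter on array 2. Vtn, the adhesive glycoprotein vitronectin, read 53.6, 61.7 and 69.3 against 5.3, 13 and 2 (log2 -2.4, adjusted p = 0.000432) and was called under every alternative that tested it, the beta-actin covariate included; the filter asking for all 6 arrays above the floor left it out.

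The insulin-like growth factor Igf2 read 494.6, 533.5 and 798.5 in the isografts and 236.4, 199.3 and 204 in the tolerizing hearts (log2 -1.48, adjusted p = 0.001596). Tfpi, which inhibits the start of coagulation, read 84.4, 80.4 and 85.5 against 29.9, 25.7 and 37.6, a log2 difference of -1.44 (adjusted p = 0.02498); the call was lost without any 1 of the isograft arrays and without tolerizing array 1 or 2. Cd59a, which keeps complement from lysing host cells, read 465, 560.9 and 343.1 against 167.8, 226 and 167.9 (log2 -1.27, adjusted p = 0.005542). Hopx, a nuclear protein of cardiac development, fell by 2.07 (adjusted p = 0.01919). The muscle fructose bisphosphatase Fbp2 fell by 2.28 (adjusted p = 0.001945) and the carboxymethylenebutenolidase homolog Cmbl by 2.25 (adjusted p = 0.00244).

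By their brightest probe sets, endothelial genes were not called in limma's test (23 measured, median -0.47). Of these, 21 were negative, and in 10 every tolerizing heart lay below every isograft (background 13.3% of genes). Another probe set of Tie1, a gene of this list, was called lower. It read 145.7, 143.9 and 162.2 against 68.9, 66.6 and 87.4 (log2 -1.03, adjusted p = 0.01919). The water channel Aqp1 read 197.6, 551.7 and 320.9 against 61.7, 96.3 and 169.7 (log2 -1.71, adjusted p = 0.1624), and the clotting protein Vwf 244.4, 190.9 and 194.6 against 94.1, 82.9 and 114.9 (log2 -1.11, adjusted p = 0.2935). The listed matrix genes were spread around 0 (50 measured, none called, median 0.05). Matrix genes outside the list were called lower. They were Tnxb (log2 -2.09 and -2.75 by its called probe sets, adjusted p = 0.0383 and 0.01301), Acan (log2 -1.52, adjusted p = 0.01983) and Vtn, given above. The listed cell cycle genes leaned up without a call (54 measured, median 0.55, 49 positive, 24 with every tolerizing heart above every isograft, against 10.5% of all genes). The mitotic kinase Aurkb came closest, with 18.4, 12.3 and 13.7 against 93.8, 49.4 and 35.2 (log2 1.91, adjusted p = 0.05173). Pttg1 and Cdkn1c, cell cycle genes outside the list, were called lower (log2 -1.24 and -1.73, adjusted p = 0.002566 and 0.01919).

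Among genes that the heart re-expresses under load, isograft array 2 was often the lowest isograft. Acta1, skeletal alpha-actin, read 2478.4, 177.4 and 574.9 in the isografts and 4411.1, 5052.4 and 5934.9 in the tolerizing hearts. The groups did not overlap, but the isografts were spread widely, with array 2 the lowest and array 1 the highest. The log2 difference of 3.01 had an SE of 1.05 (adjusted p = 0.1923). The natriuretic peptide Nppb showed the same order of isografts, with 4458.6, 721.3 and 2468.2 against 5025.6, 6694 and 5514.7 (log2 1.52, adjusted p = 0.3595). Isograft array 2 was the lowest isograft for 8 of the 11 measured genes of this list.

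The same comparison on day 70 uses other arrays throughout, 2 isografts and 3 tolerizing allografts. Of the 99 day 7 rises 98 had the same direction on day 70 and 82 were called there (82.8%, and 32.4% of the 253 rises of day 70, which are 2.66% of probe sets). Of the 80 falls 79 had the same direction and 42 were called (52.5%, and 46.7% of the 90 falls of day 70, 0.946%). The median log2 difference of the rises was 1.72 on day 7 and 2.21 on day 70, that of the falls -1.52 and -1.34. Cxcl9 was 4.96 above the isografts on the log2 scale on day 70 and Igtp 3.89, against 3.78 and 3.49 on day 7. Lef1 differed by 1.02 on day 7 and by -0.04 on day 70, Xcl1 by 2.68 and 1.37, Slc27a1 by -3.13 and -1.3, and Cd6 by -1.92 and -0.31. The difference between the days was itself tested: limma called 0 of 9510 probe sets, with 361 at an unadjusted p under 0.05, so none of these shifts over time passed.

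**Figure D4:**
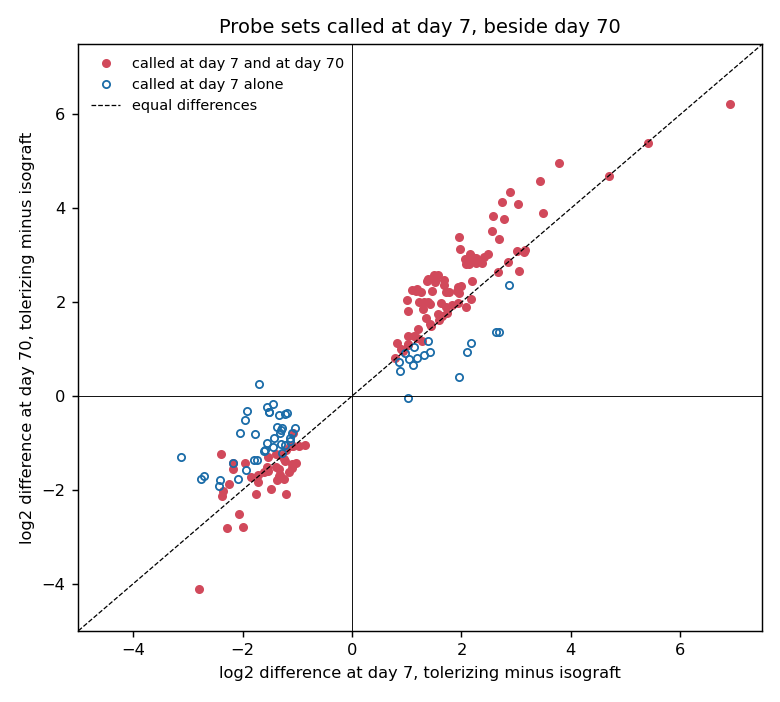
Log2 difference, tolerizing allografts minus isografts, on day 7 (x axis) and day 70 (y axis) for the 179 probe sets called on day 7; filled points were also called on day 70, open points were not, and the dashed line marks equal differences. The 99 rises lie in the upper right but for 1, and the 80 falls in the lower left but for 1.

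The rejecting allografts of day 7 had the same donor strain with no antibody named, so the labelled strains are alike in a direct contrast of rejecting and tolerizing hearts. The shares of donor and recipient cells in each heart were not measured. Their part in this contrast was not tested. Rejecting array 3 stood apart from the other 2, with Myh6 at 2212.3 against 108.7 and 76.3. The contrast called 139 probe sets (1.46%), 43 higher in the rejecting hearts (0.452%) and 96 lower (1.01%), and it called 743 without rejecting array 3, 70 and 37 without rejecting array 1 or 2, and 33 and 47 without tolerizing array 2 or 3. Of the 99 probe sets that were higher in tolerizing hearts than in isografts, 2 were called higher and 3 called lower in rejecting than in tolerizing hearts. Of the 80 that were lower, 1 was called higher and 8 called lower in the rejecting hearts.

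The 2 comparisons against isografts share those isografts, and their values are set side by side here. Over the 99 rises the median log2 difference from isografts was 1.72 in tolerizing and 1.8 in rejecting hearts, and over the 80 falls -1.52 and -1.79. Igtp differed from isografts by 3.49 in tolerizing and 3.2 in rejecting hearts, Cxcl9 by 3.78 and 3.77, and Psmb9 by 2.68 and 2.44. The direct contrast of the treatments was -0.28 for Igtp (adjusted p = 0.7453), -0.01 for Cxcl9 (adjusted p = 0.9955) and -0.24 for Psmb9 (adjusted p = 0.7839). These p-values do not show that the levels were alike.

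Of the 132 genes called on day 7, 12 were also called between rejecting and tolerizing hearts, against 1.46% of all tested probe sets. Both contrasts use the same 3 tolerizing hearts, so they are not independent. Idh2 fell in the tolerizing hearts and was lower again in the rejecting hearts, at 86.1, 89 and 214.3, a log2 difference from the tolerizing hearts of -1.83 (adjusted p = 0.03439). The same order held for Igf2, at 98.8, 80.2 and 88.3 in the rejecting hearts (log2 -1.26, adjusted p = 0.008592), and for Fmo1, at 23, 11.3 and 6.3 (log2 -1.82, adjusted p = 0.009315). Itgb2 read 368.6, 361.8 and 590 in the rejecting hearts, all above the tolerizing hearts (log2 1.64, adjusted p = 0.02456). Frzb lay under the floor in every rejecting heart, at 4.5, 6.2 and 3.6, at least 9.2-fold lower than in the tolerizing hearts (adjusted p = 0.003697). H2-Ea, carried by the same donor strain in both groups, read 48.1, 50.4 and 217.3 in the rejecting hearts (log2 -2.52, adjusted p = 0.01027).

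**Figure D5:**
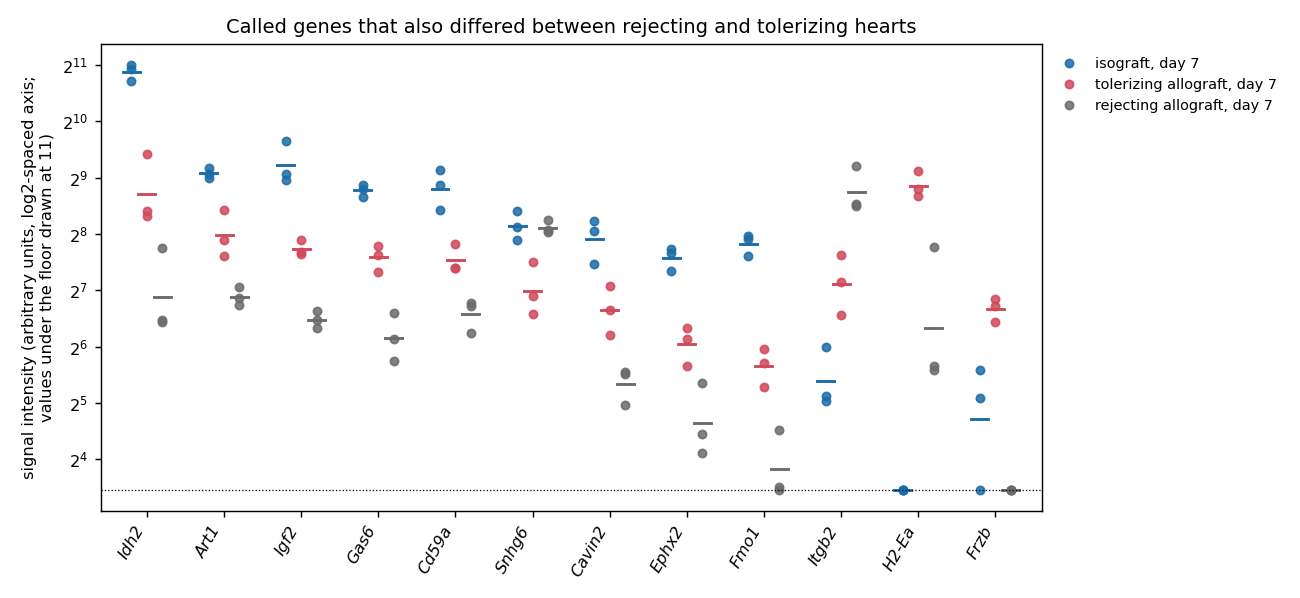
Signal intensity on each array (points, log2-spaced axis, arbitrary units) and the group mean of log2 intensity (short lines) for the 12 genes called both in tolerizing hearts against isografts and in rejecting against tolerizing hearts, 3 hearts per group on day 7. Itgb2 and Snhg6 are the 2 genes in which the rejecting hearts lie above the tolerizing ones; Frzb lies at the floor in all 3 rejecting hearts.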

How the data were processed

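Total RNA of transplanted hearts was measured on Affymetrix MG-U74Av2 arrays, 1 per heart. The deposited table holds the authors' signal intensity per probe set; software and scaling: not given in the sources used here, and the trimmed mean was 99.98 on every array. Of 12488 probe sets 66 controls were left out. Intensities under 11, the 25th percentile of all values, were raised to 11 and log2 was taken. A single limma model (version 3.58.1, R 4.3.3, intensity trend) with 5 groups was fitted to all 14 arrays, over the 9510 probe sets above 11 on at least 3 of the 6 arrays compared, with Benjamini-Hochberg adjustment and a threshold of 0.05. Gene counts use the probe set with the highest mean. The platform annotation gave 1 gene to 10833 probe sets, several to 396 and none to 1193. The members and the 40 gene lists were chosen with earlier results of these data known. Genes were named by rule (the 20 largest called rises and falls, the 6 brightest called genes at the floor in 1 group, and 5 per list), and the other called or listed genes in the text were chosen after their values were seen. Promoters are from RefSeq (GRCm38.p6). Tested on simulated data for the day 7 comparison (9510 probe sets), the fit called 44% of 100 changes of log2 1 and 91% of 100 of log2 2, with 11 false calls. The changed probe sets were drawn from those with a mean log2 more than 2 above the floor. These shares therefore do not cover dimmer probe sets. Alternatives covered scaling, floor, filter, model and left-out arrays. The number of arrays limits the precision.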

Additional observations from a re-analysis of the deposited data

Results flagged for a closer look

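Among the 132 genes called in tolerizing hearts against isografts on day 7, 12 also differed between rejecting and tolerizing hearts of the same donor strain by limma's test (3 hearts per group, Benjamini-Hochberg adjustment). That contrast called 1.46% of all tested probe sets and shares its 3 tolerizing hearts with the comparison against isografts. The log2 difference, rejecting minus tolerizing, was -1.83 for Idh2 (adjusted p = 0.03439), -1.09 for Art1 (adjusted p = 0.03694), -1.26 for Igf2 (adjusted p = 0.008592) and -1.43 for Gas6 (adjusted p = 0.01399). It was -0.96 for Cd59a (adjusted p = 0.03935), -1.3 for Cavin2 (adjusted p = 0.04854), -1.41 for Ephx2 (adjusted p = 0.03071) and -1.82 for Fmo1 (adjusted p = 0.009315). These 8 genes fell in the tolerizing hearts and were lower again in the rejecting hearts. Snhg6 fell in the tolerizing hearts and was 1.12 higher in the rejecting hearts (adjusted p = 0.03282), and Itgb2 rose and was 1.64 higher again (adjusted p = 0.02456). H2-Ea and Frzb were called higher in the tolerizing hearts than in isografts and lower in the rejecting hearts, at -2.52 (adjusted p = 0.01027) and -3.2 (adjusted p = 0.003697). For Frzb the rejecting hearts were all under the floor, so -3.2 bounds the size from below, and its call against isografts was lost in 13 of 20 alternatives. Calls against isografts were lost in 6 of 21 alternatives for Idh2, Ephx2 and Itgb2, and in 7 for Snhg6. They were lost in 9 for Art1 and Gas6, 12 for Cavin2, 2 for Fmo1, and 1 for Igf2 and Cd59a. Rejecting array 3 stood apart from the other rejecting hearts, and its part in these differences was not tested gene by gene.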

How the results depend on the processing

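The 179 calls of the day 7 comparison became 103 with no filter, 378 with array weights, 317 with only the groups compared, 83 within the second run of accession numbers, 7 with the actin ratio entered as a covariate, and 84 to 145 with 1 array left out. The 139 calls of rejecting against tolerizing hearts became 63, 1893, 27, 291 and 42 under the same 5 settings, and 33 to 743 with 1 array left out. The difference between the days, with 0 calls, had 3 with no filter and 0 to 1 with 1 array left out. The causes of these changes were not tested. The fits within the run and with an array left out also hold fewer arrays. With the replicate number as a block the 3 counts were 205, 193 and 0. As deviations from the group mean, same-numbered isografts and tolerizing hearts of day 7 correlated at -0.095, 0.05 and 0.206. The other pairs of these groups correlated at -0.223 to 0.169. So few correlations cannot show whether the numbers pair the hearts. Array 3 of each day 7 group belongs to the first run of accession numbers, so number and run cannot be told apart for it. None of the 132 called genes reversed. Of the uncalled genes named, Cd80 reversed to -0.09 within the second run and ranged from -0.1 to 0.37 with 1 array left out, Mx1 from -0.17 to 0.74 and Mx2 from -0.09 to 0.27 (log2). Igtp and Irgm2 were called under all 21 alternatives, and Gbp2b, H2-Ea and Vtn under the 20 that tested them; the filter asking for all 6 arrays above the floor left these out. Readings near 11 limit what can be said of dim genes such as Ifng.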
